A study of Mus musculus with 94 samples.

Results

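The cortex of trisomic mice treated with lamivudine was compared with the cortex of untreated wild-type mice, using the counts of sequencing reads on single LINE-1 (L1) elements. The 22 libraries were chosen by their labels out of the 94 of the series, namely 13 of treated Ts65Dn mice (TS-t) and 9 of non-treated wild-type mice (WT-nt). All mice were males, 3–4 months old. The fathers were B6C3F1/OlaHsd hybrids, the mothers were of the strain B6EiC4Sn.BLiA-Ts(1716)65Dn/DnJ, and the WT mice were littermates of the trisomic ones. TS-t mice received lamivudine at 3 mg/kg in the drinking water, whereas WT-nt mice received water. The treatment lasted 4 months, and the study does not say whether the stated age is that at its start or at dissection. The groups thus differ in both genotype and treatment, which cannot be told apart in this contrast. For that reason the values of the 17 WT-t and 9 TS-nt cortex libraries are given beside some of the results, though not beside all. The animal labels of all 9 WT-nt mice begin with 20, while those of the TS-t mice begin with 18 in 1, 19 in 4 and 20 in 8 libraries, and the results were recomputed for the mice of label 20. The study's methods mention pooling of samples within a condition before RNA was measured, and do not say whether a library is a pool or a single animal, so that p-values measure only the spread between these libraries. Values after ± are the SD over the libraries of a group, namely 9 for WT-nt, 17 for WT-t, 9 for TS-nt and 13 for TS-t.

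L1s are retrotransposons that copy themselves through an RNA intermediate, and their second open reading frame encodes a reverse transcriptase, the class of enzyme that lamivudine inhibits. In the mouse, the L1Md subfamilies are the youngest, and some of them hold the copies that can still move. The Lx and L1_Mus subfamilies are older, and the L1M subfamilies are remnants from before the radiation of mammals. HAL1 elements are relatives that lack the reverse transcriptase. Most copies are truncated, and some lie within or near genes. Reads counted on such a copy can come from a transcript of the element or from the RNA of its host gene. These counts do not tell them apart. Ts65Dn mice carry an extra chromosome made of distal MMU16, with many orthologs of HSA21 genes, and proximal MMU17, whose genes there have no HSA21 orthologs, which limits them as a model of Down syndrome. The table holds counts of L1s only, so that neither markers of cortical cell types nor a check of the trisomy by gene dosage were available, and fewer expressing cells and less RNA per cell cannot be told apart.

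The elements discussed below differ in age, and stretches of a pair of them are shown to illustrate what was counted. They are copies that lie in an exon of an annotated noncoding transcript, and the sequences were read from the GENCODE M21 transcripts (GRCm38), 5′ to 3′ on the strand of the element, in lower case throughout since no base is singled out. L1M2_dup16808 is a MMU16 copy with almost no counts in WT-nt mice, of which chr16:96768683-96768840 (+) is covered by AC154538.1 within the Dscam gene. L1Md_F2_dup59906 is a MMU17 copy in the pseudogene Gm21926, shown from chr17:3112248-3112547 (−).
L1M2_dup16808: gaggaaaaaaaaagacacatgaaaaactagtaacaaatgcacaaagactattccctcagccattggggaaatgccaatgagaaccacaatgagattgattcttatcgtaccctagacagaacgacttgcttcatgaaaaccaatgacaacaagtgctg
L1Md_F2_dup59906: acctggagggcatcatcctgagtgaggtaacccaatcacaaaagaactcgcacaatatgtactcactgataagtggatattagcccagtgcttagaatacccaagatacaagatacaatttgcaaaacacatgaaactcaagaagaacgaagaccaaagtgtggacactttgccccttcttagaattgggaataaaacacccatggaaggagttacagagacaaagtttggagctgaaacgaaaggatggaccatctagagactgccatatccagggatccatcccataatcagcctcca
The share of G and C was 39.2% in the 158 bases of L1M2_dup16808 and 43.3% in the 300 bases of L1Md_F2_dup59906.

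The L1 counts of a library were between 275291 and 1165192 in WT-nt (median 326153) and between 252114 and 641582 in TS-t mice (median 335492). A library had a count on between 41416 and 78078 L1 elements in WT-nt and on between 31478 and 97606 in TS-t mice. Neither measure separated the groups. The mean L1 total was 412716 ± 283408 in WT-nt and 350665 ± 99945 in TS-t libraries (two-sided exact permutation test, p = 0.644), and the sign of this difference rested on WT-nt replicate 1. The other 8 WT-nt libraries had 318657 ± 28190 counts, and against these the TS-t mean was higher by 32008 (exact permutation p = 0.467). The number of elements with a count was 54116 ± 11513 and 52187 ± 16420 (exact permutation p = 0.779).

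In 4 of the 22 libraries the counts were distributed differently from the rest. WT-nt replicate 1 and TS-t replicates 1, 2 and 3 had 4.25%, 2.63%, 8.04% and 4.98% of their L1 counts on the single element L1Md_T_dup9904, which held at most 0.561% in each of the other 18. The same 4 libraries had 7.48%, 5.66%, 18.8% and 14.3% on L1MEd_dup2089, more than any other of the 22. The label of WT-nt replicate 1 begins with 20, that of TS-t replicate 1 with 18 and those of TS-t replicates 2 and 3 with 19, so that the comparison within label 20 leaves out the 3 TS-t libraries but keeps the WT-nt one. Over the 4 cortex groups, 6 libraries had more than 1% of their counts on L1Md_T_dup9904, the other 2 being WT-t. Many of the results below, though not all, are also given without these 6. Where no such value is given, the result may still differ without them.

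**Figure D1:**
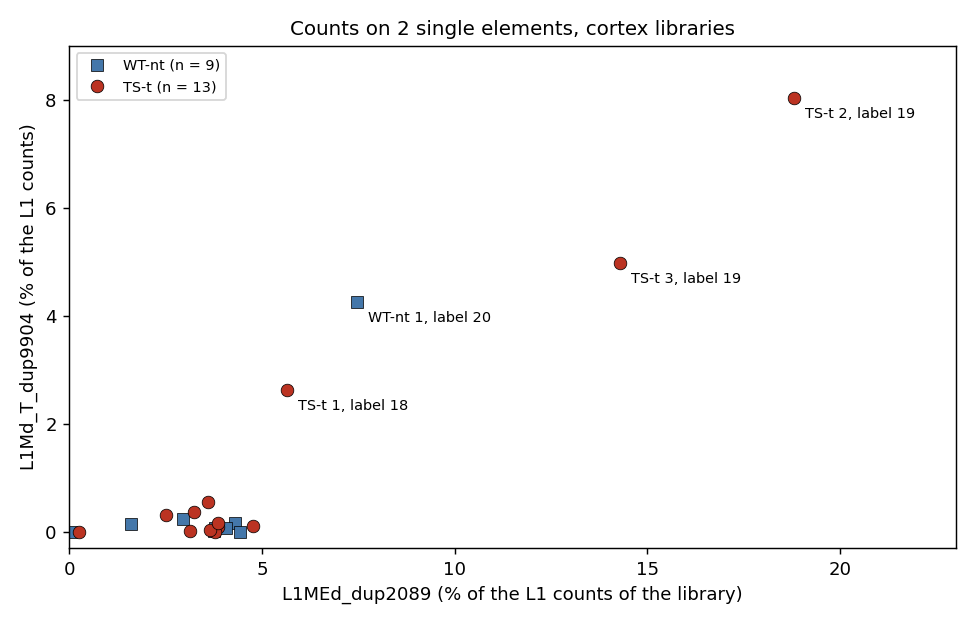
Share of the L1 counts of a library on L1MEd_dup2089 (x axis, %) and on L1Md_T_dup9904 (y axis, %), 1 point per cortex library, squares for WT-nt (n = 9) and circles for TS-t mice (n = 13). WT-nt 1 and TS-t 1, 2 and 3, named with the beginning of their animal label, lie apart from the other 18 libraries on both axes.

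Single L1s were tested in edgeR (quasi-likelihood, a model of the 4 cortex groups) on the 5416 elements that passed its filter on low counts, out of 350407 with a count in cortex. No element was called differentially expressed between TS-t and WT-nt at a Benjamini-Hochberg adjusted p-value below 0.1 (0 of 5416, 0.0%), and the smallest adjusted p was 0.999. At an unadjusted p below 0.05 there were 78 elements higher in TS-t (1.44% of those tested) and 17 lower (0.314%). DESeq2 called 0 elements with the 4 groups in the model, with 252 at an unadjusted p below 0.05, and 13 with only the 2 groups, of which 10 were higher and 3 lower in TS-t. Over all elements tested the median log2 fold change was 0.07, with quartiles of -0.20 and 0.36, and it was above 0 for 3084 and below 0 for 2331 elements. Normalized counts (CPM, counts divided by the TMM-scaled library size on the usual scale) of the groups overlapped for each of the 5416 elements (0.0% did not overlap). For single elements this size covers only the elements tested, so that CPM is not a share of the L1 counts.

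The spread between libraries set the limit of this test. The coefficient of variation common to the elements was 0.744, and the standard error of a log2 fold change had a median of 0.57. A 2-fold difference, which is 1 on the log2 scale, was thus less than 2 standard errors for an element with the median error, and differences of that size in a single L1 were mostly not detectable here. Without the 6 libraries that stand apart, again 0 elements were called, with 106 higher and 66 lower at an unadjusted p below 0.05.

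**Figure D2:**
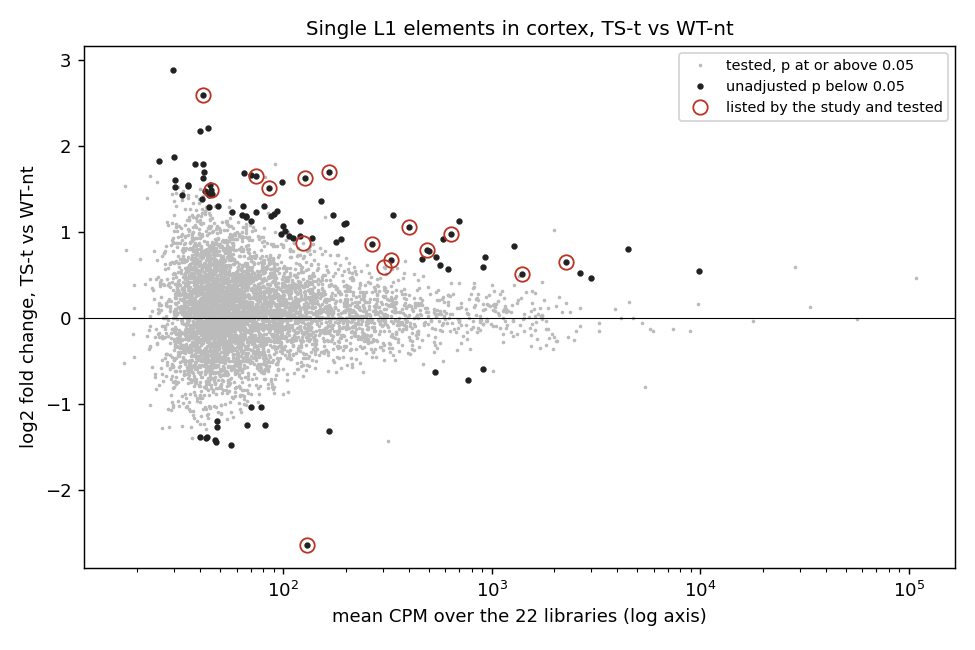
Log2 fold change of TS-t vs. WT-nt (y axis) against the mean CPM over the 22 libraries (x axis, log scale) for the 5416 L1 elements tested in cortex. Black points have an unadjusted edgeR p below 0.05 (78 above and 17 below 0, none past the adjusted threshold), and circles mark the 16 tested elements among the 39 that the study lists.

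The 5 elements with the smallest unadjusted p that were higher in TS-t, apart from those listed by the study, were L1MB3_dup94, L1Md_F_dup1709, Lx5_dup10770, L1ME4a_dup1437 and Lx7_dup7435. L1MB3_dup94, an old mammalian copy, had between 222 and 509 CPM in WT-nt (median 416) and between 302 and 2584 in TS-t mice (median 743). In 10 of 13 TS-t libraries it lay above all WT-nt libraries, and a single TS-t library, replicate 3, had the highest value. Its log2 fold change was 1.13 (SE 0.30, edgeR unadjusted p = 0.00023, adjusted p = 0.999), 0.80 (SE 0.24) without the libraries that stand apart and 0.64 (SE 0.26) within label 20. L1Md_F_dup1709 is an L1Md copy in an intron of A330008L17Rik (chr8:99525609-99526446). It had between 84.3 and 319 CPM in WT-nt (median 197) and between 192 and 1375 in TS-t mice (median 339), with 7 of 13 TS-t libraries above all WT-nt libraries. On the log2 scale the difference was 1.20 (SE 0.34, edgeR adjusted p = 0.999), 0.70 (SE 0.25) without the libraries that stand apart and 0.68 (SE 0.31) within label 20. Lx5_dup10770 was counted in only 3 of 9 WT-nt libraries, with 9 counts in all, and in 10 of 13 TS-t libraries, with 107. Its log2 fold change of 2.89 (SE 0.89) was the highest of all elements tested and rests on these few counts. L1ME4a_dup1437 had medians of 66.2 and 182 CPM and a log2 fold change of 1.37 (SE 0.42), and Lx7_dup7435 had medians of 84.3 and 183 CPM and a log2 fold change of 1.19 (SE 0.39). Within label 20 these were 0.88 (SE 0.43) and 0.66 (SE 0.39, edgeR unadjusted p = 0.0885).

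In the other direction, the 5 elements were Lx7_dup16185, L1_Mus3_dup2953, L1Md_F2_dup61822, L1M4b_dup171 and Lx6_dup4660. Lx7_dup16185 had between 47.5 and 496 CPM in WT-nt (median 253) and between 23.5 and 316 in TS-t mice (median 78.8), and 4 of 13 TS-t libraries lay below all WT-nt libraries. Its log2 fold change was -1.31 (SE 0.47, edgeR unadjusted p = 0.00725, adjusted p = 0.999). L1_Mus3_dup2953 had medians of 1071 CPM in WT-nt and 678 in TS-t mice, and means of 660.1 ± 298 in WT-t and 909 ± 464 in TS-nt mice. Its value in the treated WT mice was thus near that of the treated TS mice, with log2 fold changes against WT-nt of -0.72 (SE 0.28) for TS-t, -0.60 (SE 0.26) for WT-t and -0.14 (SE 0.31) for TS-nt, and these 3 comparisons share the WT-nt libraries. L1Md_F2_dup61822 rested on 1 library, since WT-nt replicate 1 held 67.6% of its 185 WT-nt counts. The fitted difference was -1.48 on the log2 scale (SE 0.58), -0.44 (SE 0.61) without that library and -0.14 (SE 0.52) without the libraries that stand apart. L1M4b_dup171 had medians of 1122 and 794 CPM and a log2 fold change of -0.59 (SE 0.26), and Lx6_dup4660 had medians of 97.0 and 41.6 CPM and a log2 fold change of -1.25 (SE 0.56), with neither past the adjusted threshold.

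The 5 most abundant elements are described next. L1MEd_dup2089 had a median of 74281 CPM in WT-nt and 64412 in TS-t mice, but ranged from 596 to 321657 and from 4892 to 467167. The highest values were 7.48% of the L1 counts of WT-nt replicate 1 and 18.8% of those of TS-t replicate 2. The log2 fold change of L1MEd_dup2089 was 0.47 (SE 0.55), which was 0.05 (SE 0.46) without the libraries that stand apart, 1.02 (SE 0.54) without WT-nt replicate 1 and -0.47 (SE 0.55) within label 20. L1ME3Cz_dup549, the leading element in 5 of the 22 libraries, had 56941 ± 11171 and 56543 ± 16833 CPM, a log2 fold change of -0.01 (SE 0.16). L1Md_T_dup9904, the most variable of the 5, had medians of 1533 and 2877 CPM and a log2 fold change of 0.59 (SE 1.35). Replicate 1 held 95.6% of its WT-nt counts, and the value was 4.25 (SE 1.53) without that library and -2.72 (SE 1.44) within label 20, which leaves out the 3 TS-t libraries that stand apart. Lx7_dup29483 and L1MEi_dup274 had log2 fold changes of 0.13 (SE 0.16) and -0.04 (SE 0.18). None of the 5 had an edgeR adjusted p-value below 0.999.

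The study lists 39 L1s for this comparison in cortex, 26 as higher and 13 as lower in TS-t mice. The list was made from these same libraries, so that the direction of its members is no independent result, and their values are given as a description without a test of the list. Of the 39, 16 passed the filter on low counts, 15 of those listed as higher and 1 of those listed as lower, and edgeR called 0. The study made its list with another test, the Wald test of DESeq2, at an adjusted p threshold of 0.1. Here DESeq2 with only the 2 groups called 13 elements. Among them were the listed L1MC1_dup5016, Lx2_dup14390, L1Md_F2_dup47820, Lx8_dup48025, Lx3C_dup1451 and L1Md_T_dup5917, and the others were not on the list. The positions used here are those that the study gives for these elements in GRCm38. By the GENCODE annotation 5 of the 39 overlapped an exon, 21 lay in an intron and 13 were intergenic. Of the 14 elements listed as higher that lay in a gene, 10 had the orientation of an annotated gene there and 4 the opposite one, while of the 12 listed as lower that lay in a gene 3 had the same and 9 the opposite orientation. Where genes overlap, only 1 was used. L1MC1_dup5016 and L1M2_dup16808 were counted by the noncoding Gm41505 and AC154538.1, and are opposite to the coding genes Kcnj6 and Dscam. The orientation of all L1s in genes was not counted, so these numbers support nothing about the list.

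On MMU16 there were 6 of the listed elements, all listed as higher, and 5 of them lay in distal genes that Ts65Dn mice carry with an extra copy. L1MC1_dup5016 (chr16:94750285-94751881) lies in an intron of Kcnj6, which encodes a subunit of a G-protein-gated potassium channel, and shares the strand of the antisense gene Gm41505. It had between 81.2 and 412 CPM in WT-nt (median 237) and between 158 and 1137 in TS-t mice (median 447), with 7 of 13 TS-t libraries above all WT-nt libraries. The means were 245 ± 89.0 CPM for WT-nt and 511 ± 267 for TS-t, and those of the single-factor groups, 363 ± 185 for WT-t and 369.7 ± 138 for TS-nt, lay between them. For TS-t vs. WT-nt the log2 fold change was 1.06 (SE 0.32, edgeR adjusted p = 0.999), and 0.72 (SE 0.26) without the libraries that stand apart.

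L1ME3Cz_dup944 (chr16:94395910-94396630) overlaps an exon of Ttc3, a ubiquitin ligase gene, in the same orientation. It was at 0 in WT-nt replicate 1 and at most at 253 CPM in WT-nt mice (median 209.6), and between 176 and 459 in TS-t mice (median 307), where 11 of 13 libraries lay above all WT-nt libraries. The mean was 181 ± 83.5 CPM for WT-nt and 203 ± 80.1 for WT-t, against 305 ± 73.8 for TS-nt and 328 ± 94.2 for TS-t, so that both trisomic groups lay above both WT groups. The log2 fold change was 0.86 (SE 0.37) for TS-t vs. WT-nt, 0.76 (SE 0.40) for TS-nt vs. WT-nt and 0.69 (SE 0.30) for TS-t vs. WT-t, comparisons that share libraries, and 0.10 (SE 0.36) for TS-t vs. TS-nt. None of these passed the adjusted threshold of edgeR.

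The other 3 distal MMU16 elements lie in or over Dscam, a neuronal cell adhesion molecule, and did not pass the filter. L1M2_dup16808, whose sequence is shown above, had 2 counts in WT-nt and 69 in TS-t mice, with a count in 2 of 9 and 9 of 13 libraries. L1MEc_dup4826 had 3 and 54 counts, with a count in 2 of 9 and 12 of 13 libraries. Lx4A_dup9528 had 22 counts in WT-nt, all in replicate 1, and 60 counts in 11 of 13 TS-t libraries. These 3 elements had a mean of 12.3, 7.56 and 14.7 CPM in TS-nt mice, below the 27.8, 26.8 and 27.7 CPM of TS-t mice. In the same order the means were 7.67, 11.7 and 3.98 CPM in WT-t and 1.29, 1.97 and 9.02 in WT-nt mice. All of these rest on a depth of a few counts per library.

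L1_Mm_dup4871 lies far from the distal segment, at chr16:31386704-31387928, between genes and 34352 bp from Bdh1. It had between 479.8 and 2536 CPM in WT-nt (median 1632) and between 867 and 3435 in TS-t mice (median 3148), and 7 of 13 TS-t libraries lay above all WT-nt libraries. Its mean was 1696 ± 607 CPM for WT-nt and 1810.5 ± 589 for WT-t mice. The trisomic groups had higher means, 3034 ± 986 for TS-nt and 2662 ± 831 for TS-t. Its log2 fold change for TS-t was 0.65 (SE 0.23, edgeR unadjusted p = 0.00613, adjusted p = 0.999), and 0.84 (SE 0.25) for TS-nt vs. WT-nt, which shares the WT-nt libraries.

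Of the 4 listed elements on MMU17, L1Md_F2_dup59906 is next to the gene Scaf8 at the proximal end, and it had the highest counts. It had between 402 and 1513 CPM in WT-nt (median 1219) and between 727 and 2222 in TS-t mice (median 1623). The log2 fold change was 0.51 (SE 0.26) for TS-t vs. WT-nt, 0.73 (SE 0.28) for TS-nt vs. WT-nt and -0.22 (SE 0.25) for TS-t vs. TS-nt, so that the treated trisomic mice had the smaller difference of the 2 trisomic groups from the same WT-nt libraries, and the interaction of genotype and treatment did not pass the test (edgeR unadjusted p = 0.355).

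The other 3 MMU17 elements are intergenic neighbors, 15575, 23822 and 30838 bp from Satb1, which encodes a chromatin organizer. They start at chr17:51848865, 51857112 and 51864128, far from L1Md_F2_dup59906 at the proximal end. Whether the extra chromosome carries them was not checked. L1VL4_dup5634 had between 0 and 110.3 CPM in WT-nt (median 33.9) and between 31.2 and 178 in TS-t mice (median 97.6), a log2 fold change of 1.65 (SE 0.67), and 5 of 13 TS-t libraries lay above all WT-nt libraries. Its means were 32.6 ± 35.0 CPM for WT-nt, 61.9 ± 69.8 for WT-t, 92.4 ± 81.7 for TS-nt and 102.8 ± 49.7 for TS-t. L1MD3_dup2285, under the filter, had 14 counts in 5 of 9 WT-nt libraries and 122 counts in 12 of 13 TS-t libraries, with 11 of 13 above all WT-nt libraries in CPM. It was high in TS-t mice alone, at 53.2 ± 29.5 CPM against 9.71 ± 12.1 for WT-nt, 12.7 ± 15.2 for WT-t and 12.3 ± 12.8 for TS-nt. L1M5_dup15311, also under the filter, had 2 and 71 counts, with a count in 2 of 9 and 10 of 13 libraries, and TS-t replicate 1 held 35.2% of the latter.

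**Figure D3:**
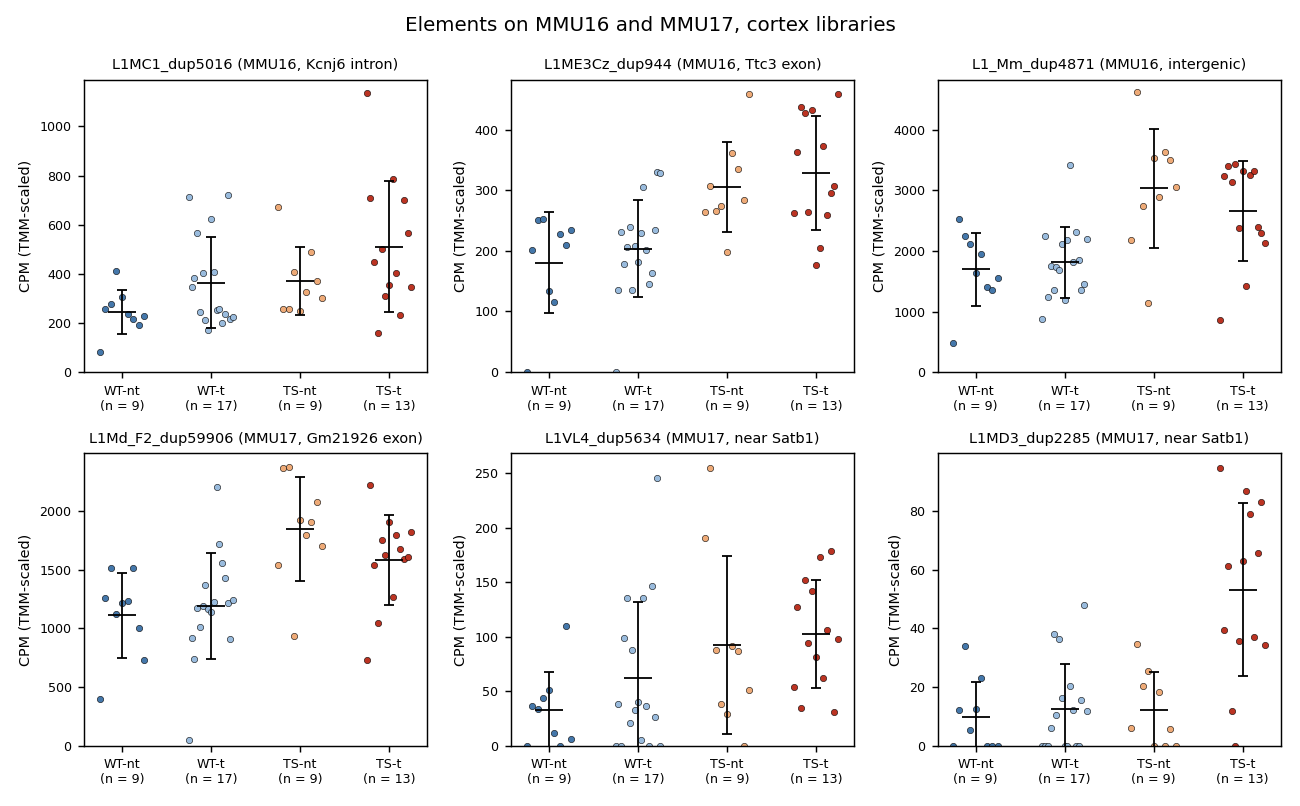
CPM (y axis, linear from 0) of 6 listed L1 elements on MMU16 and MMU17 in the cortex libraries of the 4 groups, 1 point per library, with the mean as a bar and the SD as error bars, cut at 0. All panels but that of L1MD3_dup2285 had higher means in both trisomic groups than in both WT groups. For L1MC1_dup5016 the means of TS-nt and WT-t were close. L1MD3_dup2285 was high in TS-t alone, and libraries of the groups overlapped in each panel.

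Elsewhere, the tested elements listed as higher included a copy near a gene of the developing cortex. Lx2_dup14390, in an intron of A830082K12Rik and 38837 bp from Nr2f1, a nuclear receptor that patterns the cortex, had between 148 and 692 CPM in WT-nt (median 430.2) and between 436 and 1454 in TS-t mice (median 728). All TS-t libraries lay above the WT-nt median, and the log2 fold change was 0.97 (SE 0.29, edgeR unadjusted p = 0.000798, adjusted p = 0.999), and 0.77 (SE 0.20) without the libraries that stand apart.

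L1Md_A_dup6813, in an intron of Csmd1, is at 6174 bp the longest of the 39 and the only L1Md_A copy among them. It had 15 counts in 5 of 9 WT-nt libraries and 144 counts in 12 of 13 TS-t libraries, and a log2 fold change of 2.59 (SE 0.83, edgeR unadjusted p = 0.00214, adjusted p = 0.999). A pair of intergenic copies lies 55056 and 72013 bp from Ptprd, a receptor phosphatase of synapses. The nearer one, Lx3C_dup1451, had medians of 66.4 CPM in WT-nt and 234 in TS-t mice, and a log2 fold change of 1.70 (SE 0.50). WT-nt was the low group with a mean of 71.0 ± 42.8 CPM, beside 185 ± 166 for WT-t, 150.4 ± 85.1 for TS-nt and 232 ± 125 for TS-t. Lx_dup5779, under the filter, had 6 counts in 3 of 9 WT-nt libraries and 93 counts in 13 of 13 TS-t libraries. Over the 15 tested elements listed as higher, the median log2 fold change was 0.97 for TS-t vs. WT-nt, and, in comparisons that share the WT-nt libraries, 0.76 for TS-nt and 0.57 for WT-t, beside 0.07, 0.07 and -0.01 over all elements tested. These 15 passed the filter in part through the group in which they are high, and the medians support nothing about the list.

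For the 11 elements listed as higher that did not pass the filter, the WT-nt libraries together held between 2 and 22 counts per element and the TS-t libraries between 54 and 122. Their median length was 414 bp. The 12 elements listed as lower that did not pass it held between 38 and 119 counts in WT-nt and between 2 and 45 in TS-t libraries, with a median length of 1165.5 bp. All 12 had their highest WT-nt count in replicate 1, which held 356 of their 734 WT-nt counts (48.5%), whereas it held 31.4% of the L1 counts of the group. L1Md_F3_dup2948 in Gm26691 had 38 of its 60 WT-nt counts there and L1Md_F2_dup45970 in an intron of Rad50, a gene of DNA double-strand break repair, 44 of 68. On the CPM scale the ratio of the TS-t to the WT-nt mean was between 0.0256 and 0.379 for the 12, and between 0.0477 and 0.441 without replicate 1, so that the means stayed lower in TS-t. The ratio moved by over 1.5 times for 4 of them, namely L1M4_dup3352, L1Md_F2_dup45970, L1Md_F3_dup2948 and Lx8_dup11305.

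The only listed lower element that was tested, L1Md_T_dup5917 (chr4:89540200-89544786), is a young intergenic copy of 4587 bp. It had between 6.02 and 560.3 CPM in WT-nt (median 234) and between 0 and 136 in TS-t mice (median 36.1), and 4 of 13 TS-t libraries lay below all WT-nt libraries. The log2 fold change of -2.64 (SE 0.79, edgeR unadjusted p = 0.00172, adjusted p = 0.999) was the lowest of all elements tested, and it was -2.73 (SE 0.83) without the libraries that stand apart. WT-nt had the highest mean of the 4 groups at 259 ± 178 CPM, followed by 117 ± 91.5 for TS-nt, 90.0 ± 122 for WT-t and 40.8 ± 39.2 for TS-t. TS-nt and WT-t differ by less than their spread.

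Summed over subfamilies (the name before the copy number), 1 of 133 (0.752%) was called, and 7 had an unadjusted p below 0.05, of which 5 were higher (3.76%) and 2 lower (1.5%) in TS-t. The called subfamily was HAL1_SS. It had between 277 and 485 CPM in WT-nt (median 364) and between 372 and 724 in TS-t mice (median 517), with 7 of 13 TS-t libraries above all WT-nt libraries. The log2 fold change was 0.58 (SE 0.16, edgeR adjusted p = 0.0718). The means of 565 ± 131 CPM for TS-nt and 544 ± 117 for TS-t lay beside each other, above 426 ± 125 for WT-t and 364 ± 64.9 for WT-nt. The fold change for TS-nt vs. WT-nt, which shares the WT-nt libraries, was 0.64 (SE 0.17, edgeR adjusted p = 0.054), and that for TS-t vs. TS-nt was -0.06 (SE 0.15).

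The HAL1_SS result is that of a single copy. Of the 28 copies with a count, HAL1_SS_dup70 held 95.5% of the counts, and the rest had too few counts to be tested. On the scale of the subfamilies it had between 210.2 and 478 CPM in WT-nt (median 332) and between 344 and 703 in TS-t mice (median 512). Tested as an element among 5416, its log2 fold change of 0.60 (SE 0.25) had an unadjusted p of 0.019 and an adjusted p of 0.999 in edgeR. The call was lost without WT-nt replicate 1 (adjusted p = 0.247), within label 20 (adjusted p = 0.158) and without the 6 libraries that stand apart (adjusted p = 0.620), while the log2 fold change was 0.52, 0.60 and 0.45. It was called in 10 of the 22 fits that left out 1 of the compared libraries, with log2 fold changes of 0.52 to 0.64 and adjusted p of 0.0337 to 0.247.

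L1MC4 behaved alike without being called. It had between 6843 and 13643 CPM in WT-nt (median 12237) and between 8702 and 18292 in TS-t mice (median 14087), and 8 of 13 TS-t libraries lay above all WT-nt libraries. The means were 11792 ± 2004 CPM for WT-nt, 13132 ± 1192 for WT-t, 14174 ± 1613 for TS-nt and 13904 ± 2230 for TS-t. In edgeR the log2 fold change was 0.24 (SE 0.09, unadjusted p = 0.00983, adjusted p = 0.599). It was 0.15 (SE 0.08) without WT-nt replicate 1 and 0.16 (SE 0.06) without the libraries that stand apart. Of its 2832 copies with a count, L1MC4_dup2661 alone held 37.0% of the counts. This copy (chr9:46921094-46921851) lies wholly within an exon of the noncoding gene 2900052N01Rik, in the same orientation. Its counts may thus be those of that gene's RNA, which was not tested. On the scale of the single elements this copy had between 4765 and 9908 CPM in WT-nt (median 8632) and between 5985 and 18906 in TS-t mice (median 12085), a log2 fold change of 0.54 (SE 0.19). Without it, the fold change of the L1MC4 subfamily was 0.04 (SE 0.08). L1_Mm, at 0.16 (SE 0.08), likewise had 0.02 (SE 0.08) without L1_Mm_dup4871, which held 23.7% of its counts.

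**Figure D4:**
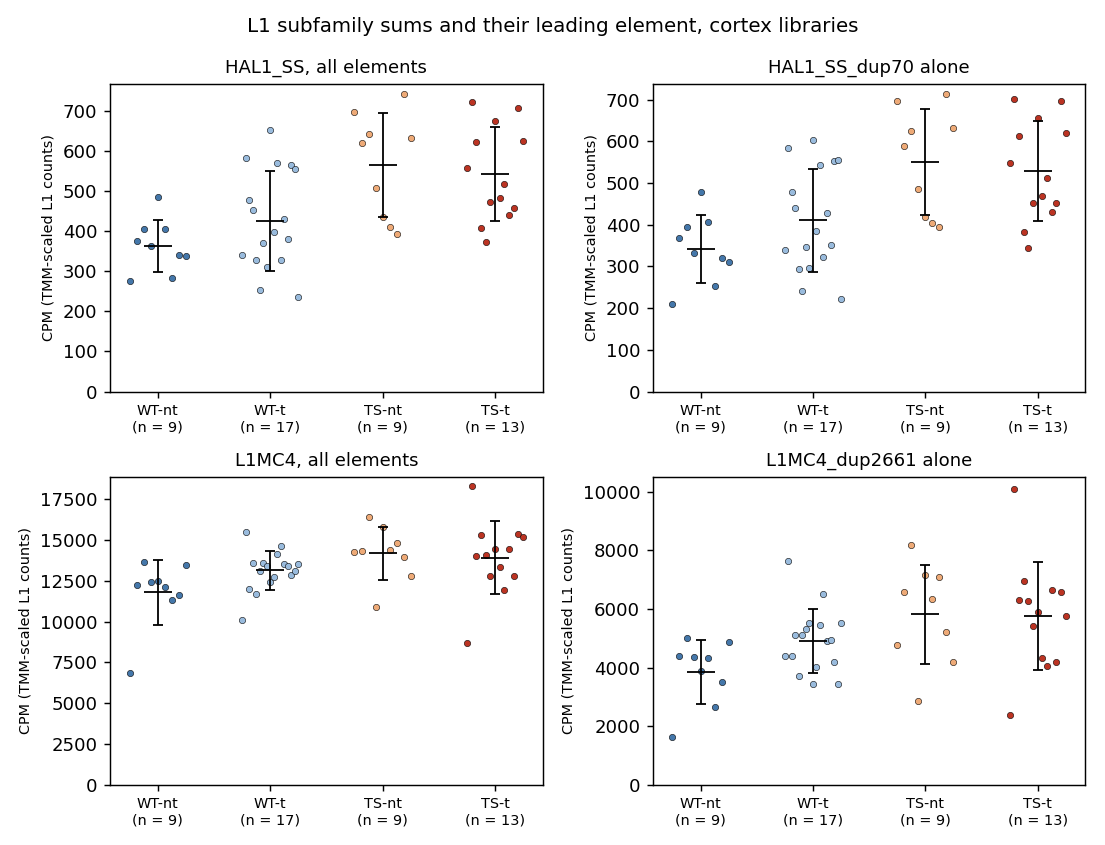
CPM (y axis, linear from 0) of the subfamilies HAL1_SS and L1MC4 (left) and of the element that leads each (right), scaled to the same library sizes, in the 4 cortex groups, 1 point per library, with mean and SD. HAL1_SS_dup70 alone shows the values of its subfamily, and the TS-t and WT-nt libraries overlap in each panel.

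L1ME3F, a subfamily of old copies, had between 239 and 534 CPM in WT-nt (median 421) and between 384 and 777 in TS-t mice (median 540.2), with 7 of 13 TS-t libraries above all WT-nt libraries. Its log2 fold change was 0.37 (SE 0.14, edgeR unadjusted p = 0.0135, adjusted p = 0.599), and 0.41 (SE 0.16) without the leading copy, which held 12.4% of the counts. Without the libraries that stand apart it was 0.24 (SE 0.11). L1MC had a log2 fold change of 0.09 (SE 0.05), and 0.05 (SE 0.05) without WT-nt replicate 1. Of the lower ones, L1MCa had medians of 3203 and 2959 CPM and a log2 fold change of -0.11 (SE 0.05), and -0.03 (SE 0.05) within label 20. Lx4B had medians of 4086 and 3734 CPM and a log2 fold change of -0.21 (SE 0.10), which was -0.06 (SE 0.07) both without the libraries that stand apart and without WT-nt replicate 1 alone. Its highest WT-nt value, 8192 CPM, was that of replicate 1.

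For the young L1Md subfamilies, some of which hold the copies capable of movement, no difference passed the adjusted threshold of edgeR. L1Md_T had between 22515 and 117418 CPM in WT-nt (median 24406) and between 22156 and 141646 in TS-t mice (median 24981), and the high values were those of the libraries that stand apart. The log2 fold change of 0.25 (SE 0.44) became -0.01 (SE 0.06) without them, and -0.08 (SE 0.08) without L1Md_T_dup9904. In the same way the log2 fold change was -0.10 (SE 0.10) for L1Md_A, -0.20 (SE 0.16) for L1Md_Gf, -0.10 (SE 0.08) for L1Md_F2 and -0.10 (SE 0.14) for L1Md_F3, and between -0.06 and 0.02 for these 4 without the libraries that stand apart. L1Md_F had 0.04 (SE 0.13) with all libraries and 0.13 (SE 0.05, edgeR unadjusted p = 0.014, adjusted p = 0.620) without those 6. The direction of all 6 turned on which libraries were left out. Without WT-nt replicate 1 alone the log2 fold change was 0.74 for L1Md_T, 0.08 for L1Md_A, 0.08 for L1Md_Gf, 0.25 for L1Md_F (edgeR adjusted p = 0.247), 0.04 for L1Md_F2 and 0.07 for L1Md_F3, while within label 20, which keeps it, it was -0.47, -0.17, -0.23, -0.08, -0.16 and -0.23 in the same order (edgeR adjusted p of 0.445 or more). The leading copy of L1Md_F, L1Md_F_dup3732, which lies on distal MMU16, had between 225 and 554 CPM in WT-nt (median 297) and between 239 and 845 in TS-t mice (median 520.2), a log2 fold change of 0.69 (SE 0.30).

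The subfamilies were grouped into 15 classes by name and age, and the share of the L1 counts of a library in each class was compared with an exact permutation test over the libraries. After adjustment over the 15 classes, 1 passed the threshold of 0.1. The Lx3 and Lx4 class held between 4.55% and 5.78% of the counts in WT-nt (median 4.78%) and between 3.93% and 5.16% in TS-t mice (median 4.36%), with overlap between the groups. The TS-t mean was lower by 0.532 percentage points (two-sided exact permutation test, p = 0.00392, adjusted p = 0.0588), and in mice of label 20 by 0.612 (exact permutation p = 0.000288). Without the libraries that stand apart it was lower by 0.381 points (exact permutation p = 0.0248, adjusted p = 0.373), and without WT-nt replicate 1 alone by 0.432 (exact permutation p = 0.0109, adjusted p = 0.163), and it no longer passed in either. Of the 252 elements of the class that were tested, 129 had a log2 fold change above 0 and 123 below, beside 3084 and 2331 of all 5416. The median was 0.01, beside 0.07 over all elements. At an unadjusted edgeR p below 0.05, 2 were higher and 2 lower, beside 1.44% and 0.314% of all elements. Whether the class differs from all elements in this was not tested. The copy with the largest part in the difference was Lx3B_dup3459, with a median of 0.711% of the L1 counts of a WT-nt and 0.547% of those of a TS-t library. Its difference in mean share was -0.0871 percentage points, beside -0.532 for the class, so that most of the difference lay in other copies.

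The other 14 classes differed by less than their spread between libraries. The L1Md_T, L1Md_A and L1Md_Gf class held 4.99% ± 2.1 in WT-nt and 5.52% ± 2.49 in TS-t libraries (exact permutation p = 0.604). Among the 8 WT-nt and 10 TS-t libraries that do not stand apart it held 4.29% ± 0.196 and 4.32% ± 0.308 (exact permutation p = 0.817). The L1ME class held 14.03% ± 1.95 and 15.98% ± 4.94 (exact permutation p = 0.309), and the highest share, 27.5%, was that of TS-t replicate 2, the library with the largest share on L1MEd_dup2089. The L1Md_F, L1Md_F2 and L1Md_F3 class, of which 17 of 624 tested elements were higher and 4 lower at an unadjusted p below 0.05 (beside 1.44% and 0.314% of all elements), held 8.49% ± 1.04 and 8.09% ± 0.80 (exact permutation p = 0.343). The medians of the log2 fold changes of single elements lay between -0.01 and 0.13 for the 15 classes, beside 0.07 over all elements.

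**Figure D5:**
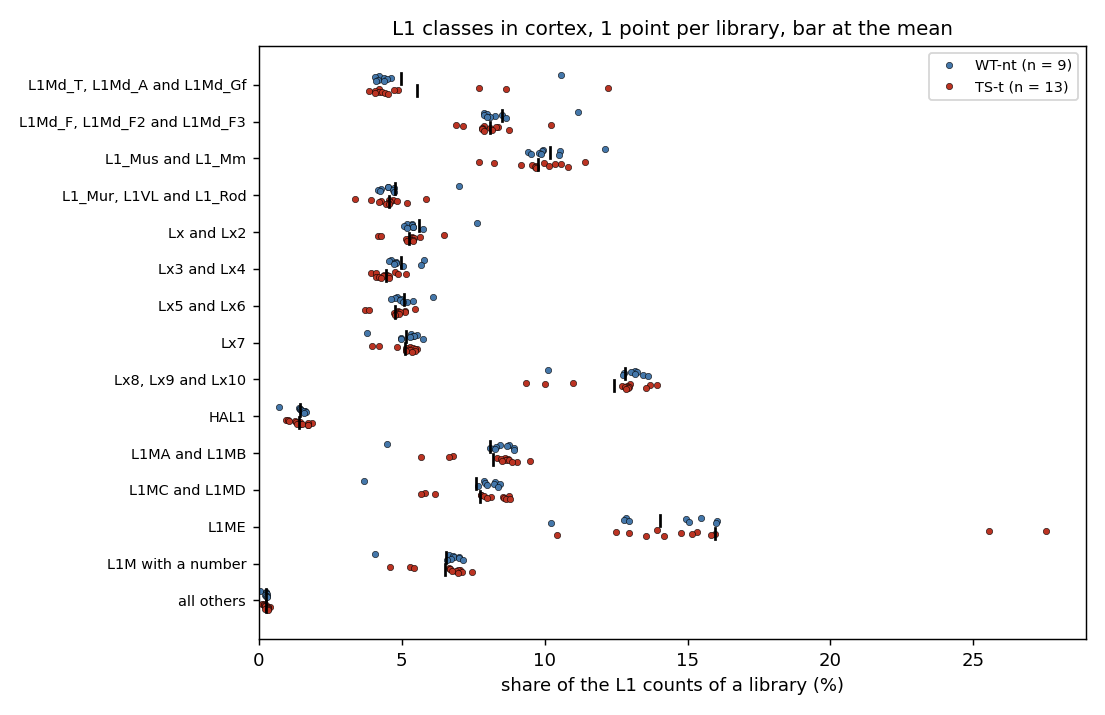
Share of the L1 counts of a library (x axis, %) in 15 classes of L1 subfamilies, 1 point per library for WT-nt (n = 9) and TS-t mice (n = 13), with bars at the group means. The groups overlap in each class, and the outlying points are mostly those of WT-nt replicate 1 and TS-t replicates 1, 2 and 3.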

How the data were processed

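RNA-seq libraries of the cortex (48 of 94, the rest hippocampus) were used. Per the study's methods and the submitters' processing notes, the authors trimmed reads with Trimmomatic 0.38, aligned them to GRCm38 with HISAT2 2.1.0 allowing up to 5 alignments, and used Telescope, which assigns a multi-mapped read to its most probable copy, to obtain the raw counts of reads per L1 element that they deposited. The Telescope version and whether counting used strand are not given in the sources used here. Copies of near-identical sequence, the young L1Md ones above all, can therefore exchange reads, and the 70 names without a copy number were kept as they stand. The table holds 430083 elements, of which 41336 have no count in any library.

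Groups were taken from the labels. Elements, and counts summed per subfamily, were tested in edgeR 4.0.16 (R 4.3.3, limma 3.58.1; filterByExpr, TMM, quasi-likelihood with robust dispersion, 4 cortex groups, contrast TS-t vs. WT-nt) with Benjamini-Hochberg adjustment over all elements or subfamilies and a threshold of 0.1. DESeq2 1.42.0 was an alternative. Class shares, L1 totals and numbers of elements with a count were compared by a two-sided exact permutation test with 497420 assignments of the 22 libraries (Python 3.11.15, numpy 2.4.6, pandas 2.3.3, scipy 1.17.1). Figures were drawn with matplotlib 3.10.9. The fits were tested on simulated data. No 2 libraries of a group had identical counts.

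Named elements come from all that the study lists for this comparison, the 5 with the smallest unadjusted p in each direction beside them, and the 5 most abundant. Named subfamilies are the called one and the 6 L1Md ones. The other 6 with an unadjusted p below 0.05 and the leading copies of subfamilies, L1MC4_dup2661 and L1Md_F_dup3732 among them, were added after their values were seen. The members, lists and rules were chosen with earlier results of these data known. Library depth was 252114 to 1165192 L1 counts, of which the elements tested held 50% in cortex. Leaving out the libraries that stand apart, or the leading element of each subfamily, was chosen after seeing the data. Some listed elements and sequences are not reported here.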

Additional observations from a re-analysis of the deposited data

Results flagged for a closer look

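In 26 of 45 sets of WT-nt values checked, a library lay far from the others by Dixon's criterion, where chance gives about 1 in 20, and in all 26 it was WT-nt replicate 1. Its L1 total was the highest at 1165192 counts. Its share was the highest of the group for the L1Md_T, L1Md_A and L1Md_Gf class (10.56%), the L1Md_F, L1Md_F2 and L1Md_F3 class (11.16%), L1_Mus and L1_Mm (12.12%), L1_Mur, L1VL and L1_Rod (7.001%) and Lx and Lx2 (7.618%). It was the lowest for Lx7 (3.775%), Lx8, Lx9 and Lx10 (10.13%), HAL1 (0.7015%), L1MA and L1MB (4.467%), L1MC and L1MD (3.666%), L1M with a number (4.056%) and the remaining names (0.04128%). The younger classes were thus high and the older ones low in this library.

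Among subfamilies it was highest for L1Md_T (117418 CPM), L1Md_A (35114 CPM), L1Md_Gf (3235 CPM), L1Md_F (6574 CPM), L1Md_F2 (131028 CPM), L1Md_F3 (27075 CPM) and Lx4B (8192 CPM), and lowest for L1MC4 (6843 CPM) and L1MC (4588 CPM). Of single elements, L1MEd_dup2089 (321657 CPM), L1Md_T_dup9904 (182971 CPM) and L1Md_F2_dup61822 (461.4 CPM) were highest and Lx7_dup29483 (13997 CPM) was lowest in it. The sets are not independent, since they hold the same libraries and shares that sum to a whole.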

How the results depend on the processing

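No paired analysis was possible because the groups share no animals, and the replicate numbers are only names. For single elements (0 called), DESeq2 with the 2 groups alone called 13 of 3109, and among these were L1MC1_dup5016, HAL1_SS_dup70 and Lx2_dup14390 as higher and L1Md_T_dup5917 as lower. A filter of at least 10 counts gave 46478 calls of 186107 and no filter 64311 of 350407 and the split between higher and lower was 20095 to 26383 in the first. The cause was not tested. Leaving out each library in turn gave 0 to 1 calls (Lx_dup7185 without WT-nt replicate 2), and edgeR with the 2 groups, size factors in place of TMM, and the subsets of libraries gave 0. For subfamilies (1 called, HAL1_SS), there were 0 calls without WT-nt replicate 1, within label 20, at an adjusted p below 0.05, without the leading element of each subfamily and without the libraries that stand apart. Leaving out each library gave 0 to 1 calls, and 0 without any one of TS-t replicates 1, 2, 3, 7, 12 and 13 and WT-nt replicates 1, 2, 4, 7, 8 and 9. For class shares (1 passed, Lx3 and Lx4), 0 passed without WT-nt replicate 1, without the libraries that stand apart and without the most abundant element of each library. The difference of the L1 total reversed to 32008 without WT-nt replicate 1 and to 20301 without the libraries that stand apart. That of the elements with a count reversed to 2052.9 within label 20 and to 1456.4 without the libraries that stand apart, with no p below 0.05 in any of these. HAL1_SS kept its direction under the alternatives that could be fitted. L1 counts of a few per library limit the elements below the filter.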

Other observations

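The elements with an unadjusted p below 0.05 were spread over many subfamilies, 42 for those higher and 14 for those lower in TS-t. L1Md_F2, the subfamily with the most of them, had 14 higher and 4 lower of 509 tested, beside 1.44% and 0.314% of all elements.

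The values of 3 leading copies of young subfamilies are given beside those of their subfamily, and the difference between copy and subfamily was not tested. L1Md_Gf_dup993 was at 0 in WT-nt replicate 1 and at most at 705 CPM in WT-nt mice (median 461), and between 455 and 1011 in TS-t mice (median 594), a log2 fold change of 0.60 (SE 0.34) beside -0.20 (SE 0.16) for L1Md_Gf. Without that library these were 0.42 (SE 0.29) and 0.08 (SE 0.12). L1Md_F2_dup28824 had medians of 2769 and 3451 CPM and a log2 fold change of 0.47 (SE 0.22) beside -0.10 (SE 0.08) for L1Md_F2, and 0.34 (SE 0.22) beside 0.04 (SE 0.05) without WT-nt replicate 1. L1Md_F3_dup1623 lay below all WT-nt libraries in 8 of 13 TS-t libraries, with medians of 1841 and 1238 CPM, while TS-t replicate 3 reached 8321 CPM. Its log2 fold change was -0.27 (SE 0.37), -0.74 (SE 0.20) without the libraries that stand apart and -0.09 (SE 0.37) without WT-nt replicate 1 alone. None of the 3 passed the adjusted threshold of edgeR, and they were chosen after their values were seen.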
